A study of Mus musculus with 32 samples.

Results

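Repopulated and resident microglia of uninjured female mice were compared in 7 RNA-seq libraries, 3 repopulated and 4 resident. They are the libraries without fracture in the table that holds 15 female libraries, out of 32 libraries in the series, and were chosen by their labels alone. The cells were sorted by fluorescence as microglia, the series concerns the spinal cord, and every library is labelled day 14. The genotype is given as Cx3Cr1-Cre;Rosa26-iDTR for every mouse. In this line tamoxifen lets Cre, driven from Cx3cr1, switch on a diphtheria toxin receptor inserted at the Rosa26 locus, so that diphtheria toxin kills Cx3cr1-expressing cells for a time, a class that also includes other macrophages and some monocytes. The 3 repopulated libraries are labelled as depleted and the 4 resident ones as not depleted, and neither group had an injury. The sample descriptions call the resident libraries Wt, although their genotype label is the same. The labels do not say what the resident mice received, so depletion, toxin exposure and any difference in genotype cannot be told apart here. They also do not say that each library came from its own animal. The p-values of this comparison therefore reflect only how far the 15 female libraries differ within their groups, part of which may be technical.

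Microglia are the macrophages of the brain and spinal cord. They settle there before birth, renew themselves by division, and depend on signalling through the receptor Csf1r. They keep a recognisable gene set (P2ry12, Tmem119, Sall1 and others) while they live in that tissue. When they are removed, the niche is refilled within days by surviving microglia and, in some models, by macrophages that come from the blood. Macrophages break down what they take up in lysosomes, acid vesicles filled with cathepsin proteases and with enzymes that cut sugars and lipids.

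Repopulated microglia had more RNA of lysosomal enzymes, of ribosomal proteins and of a few genes typical of blood-derived macrophages than resident microglia. They had less RNA of part of the homeostatic microglial genes, of DNA replication genes and of genes better known from B lymphocytes. Of 13377 genes, 338 were called (2.53%), which means a Benjamini-Hochberg adjusted p below 0.05 in edgeR's quasi-likelihood test. Of these, 209 were higher (1.56%) and 129 lower (0.964%) in repopulated cells. The median log2 fold change was 0.54 among the higher genes and -0.99 among the lower ones, beside -0.02 over all genes. Transcripts found only in resident libraries could be listed, while those found only in repopulated ones could not. The part of this in the medians was not tested. All values per library below are CPM, counts scaled to library totals times TMM factors, given for resident replicates 1 to 4 and then repopulated replicates 1 to 3. With library totals as the only scaling, 344 genes were called, 116 higher and 228 lower, and the median of all genes moved to -0.11. In bulk RNA, fewer cells of a type and less RNA per cell cannot be told apart.

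The count depended on single libraries and on the other female groups. All 15 female libraries entered the fit, so that the spread was estimated over 4 groups. A fit of the 7 libraries alone called 0 genes, with 1591 at an unadjusted p below 0.05, against 2041 in the fit of 15. Leaving out resident replicate 3 raised the count to 612, and leaving out repopulated replicate 1 lowered it to 51. The other 5 omissions gave 222 without resident replicate 1, 183 without resident replicate 2, 135 without resident replicate 4, 133 without repopulated replicate 2 and 209 without repopulated replicate 3. Only 36 genes (0.269%), 24 higher and 12 lower, passed whichever of the 7 libraries was left out, and stable refers to these from here on. A gene named without that word as called lost its call without at least 1 of these libraries, and unless stated otherwise repopulated replicate 1 was one of them.

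**Figure D1:**
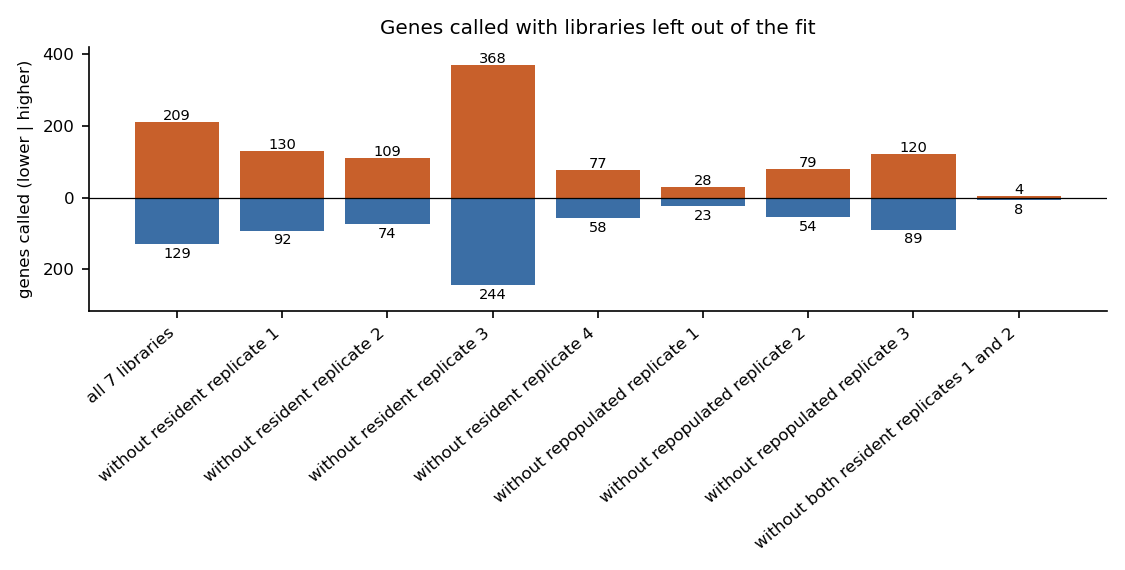
Number of genes called, higher (upward bars) and lower (downward bars) in repopulated microglia, in the fit of all libraries and with single libraries left out. The total went from 51 without repopulated replicate 1 to 612 without resident replicate 3, and fell to 12 without both resident replicates 1 and 2.

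Library totals of the 7 libraries ran from 16535859 to 18396979 estimated counts. On a scale set by the called genes, with the resident mean at 0 and the repopulated mean at 1, resident replicate 3 stood at 0.27 and the other resident libraries at -0.13 to -0.02. The repopulated libraries stood at 0.89 to 1.11, with replicate 1 the highest. Since the called genes define that scale, it describes the libraries and tests nothing. Resident replicates 1 and 2 and repopulated replicate 1 had 180, 223 and 232 genes at 0, against 56, 56, 152 and 135 in the other 4 libraries. Without both resident replicates 1 and 2, a choice made after the data were seen, 12 genes were called. The listed microglial markers included abundant genes in every library, such as Csf1r, the growth factor receptor, at 13545 to 16079.6 CPM.

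Promoter sequences of called cell division and lysosomal genes are shown because members of both groups moved together. They come from RefSeq (GRCm38.p6), read on the strand of the gene from 5′ to 3′, and each stretch of 100 bases lies upstream of an annotated start without touching a GENCODE exon. Capitals mark CCAAT or its reverse complement and TTTGAA, both known from promoters of cell cycle genes, or CACGTG, the E-box core found in many lysosomal promoters.
Mcm2 (chr6:88898781-88898880, minus strand): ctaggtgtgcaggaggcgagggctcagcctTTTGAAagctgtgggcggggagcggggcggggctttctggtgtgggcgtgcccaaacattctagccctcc
Mcm7 (chr5:138171267-138171366, minus strand): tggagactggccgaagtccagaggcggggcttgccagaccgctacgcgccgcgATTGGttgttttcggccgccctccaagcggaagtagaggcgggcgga
Uhrf1 (chr17:56303221-56303320, plus strand): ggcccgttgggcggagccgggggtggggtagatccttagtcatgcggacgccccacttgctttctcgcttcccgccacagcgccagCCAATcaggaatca
Glb1 (chr9:114400976-114401075, plus strand): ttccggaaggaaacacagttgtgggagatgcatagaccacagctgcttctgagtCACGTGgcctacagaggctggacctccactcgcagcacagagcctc

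The motifs were searched on both strands in the 250 bases before each start. CCAAT was in the promoters of Mcm2, Mcm7, Uhrf1, Prc1 and Cdca8, the 5 called replication and mitosis genes with a RefSeq promoter, and in 41% of the 9393 tested genes that have one (37.5% of all 27025 RefSeq genes). TTTGAA was in Mcm2, 70 bases before the start, and in Prc1, beside 13.3% of tested genes. The E2F sequence TTTCCCGC was found only in Mcm7 among these 5 and in 2.12% of tested genes, and TTTGGCGC in none of the 5 and in 0.958%. CACGTG was in 3 of 4 called cathepsin genes with a promoter (Ctsa, Ctsd and Ctsl) and in 1 of 9 called lysosomal genes (Glb1, 48 bases before the start), beside 10% of tested genes (6.86% of all). The core of the interferon response element (ISRE) was in Ctss and Apobec3 and in 3.35% of tested genes. A match is a description of these letters and says nothing about binding.

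Of 15 cathepsins and inhibitors measured, 7 rose and 0 fell, with a median log2 change of 0.36, and 9 of the 15 had all 3 repopulated libraries above all 4 resident ones (6.87% of all genes did). Ctsa (chr2:164832873-164841032 in GRCm38), a carboxypeptidase that also shields neuraminidase from degradation, had 1563, 1749, 2001 and 1562 CPM in resident and 2730.1, 2553 and 2532 in repopulated libraries. It rose by 0.60 ± 0.07 (log2 ± SE, adjusted p = 0.0035), and no repopulated library reached down to the resident range. Ctss, a protease that works outside the lysosome as well, had 10991, 9135, 13279 and 9912 CPM against 17497, 16701 and 15843 and rose by 0.62 ± 0.09 (adjusted p = 0.0071). Ctsh, an aminopeptidase, had 1594, 1455, 1862 and 1437 CPM against 2484, 2285 and 2246 and rose by 0.56 ± 0.08 (adjusted p = 0.0071). In each of these 3 genes resident replicate 3 was the resident library nearest to the repopulated ones, and all 3 genes are stable.

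Ctsd, the main aspartic protease of lysosomes, was the most abundant of the 7 and had 24588, 23919, 29377 and 21209.8 CPM in resident against 40004, 33397 and 33278 in repopulated libraries, a rise of 0.52 ± 0.09 (adjusted p = 0.0098). Ctsb, a cysteine protease, and Ctsl, another, rose by 0.69 ± 0.15 and 0.36 ± 0.09, with adjusted p of 0.028 and 0.041. Ctse, an aspartic protease of endosomes, had 1.87, 1.82, 4.54 and 0.897 CPM against 13.9, 8.01 and 11 and rose by 2.26 ± 0.50 (adjusted p = 0.028), the largest change of the group at the lowest level. Over the 7 omissions of 1 library, between 3 and 9 of the 15 were called higher, and 1 was called lower without resident replicate 3.

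Of 36 lysosomal hydrolases and membrane genes measured, 10 rose and 0 fell, with a median of 0.25 and 31 positive values. Man2b1, which cuts mannose from glycoproteins, had 1741, 1813, 2248 and 1814 CPM in resident and 2768, 2772 and 2606 in repopulated libraries, a rise of 0.51 ± 0.07 (adjusted p = 0.0057) that was stable. Cd68, a heavily glycosylated lysosomal membrane protein, had 986, 1033, 976 and 932 CPM against 1298, 1207 and 1235 and rose by 0.34 ± 0.06 (adjusted p = 0.0099). It lost its call only without repopulated replicate 1, at an adjusted p of 0.0525. The other 8 were the sterol carrier Npc2 (0.61 ± 0.12), the saposin precursor Psap (0.56 ± 0.12), the ganglioside activator Gm2a (0.56 ± 0.13), the neuraminidase Neu1 (0.46 ± 0.11), and the hydrolases Glb1 (0.45 ± 0.10), Gusb (0.30 ± 0.07), Asah1 (0.29 ± 0.07) and Hexa (0.27 ± 0.06). Between 1 and 12 of the 36 were called with 1 library left out, the lowest without repopulated replicate 1, and 6 with library totals only.

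The following lysosomal genes were picked after their values were seen. Flcn, which with its partners controls the nutrient sensor mTORC1 on the lysosome, rose by 0.64 ± 0.10 (adjusted p = 0.0071) and was stable. Tpcn2, a lysosomal cation channel, rose by 0.84 ± 0.14 (adjusted p = 0.0098). Of the proton pump that acidifies lysosomes, the subunit Tcirg1 rose by 0.32 ± 0.06 and Atp6v0c, another subunit, by 0.41 ± 0.10, with adjusted p of 0.017 and 0.041.

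**Figure D2:**
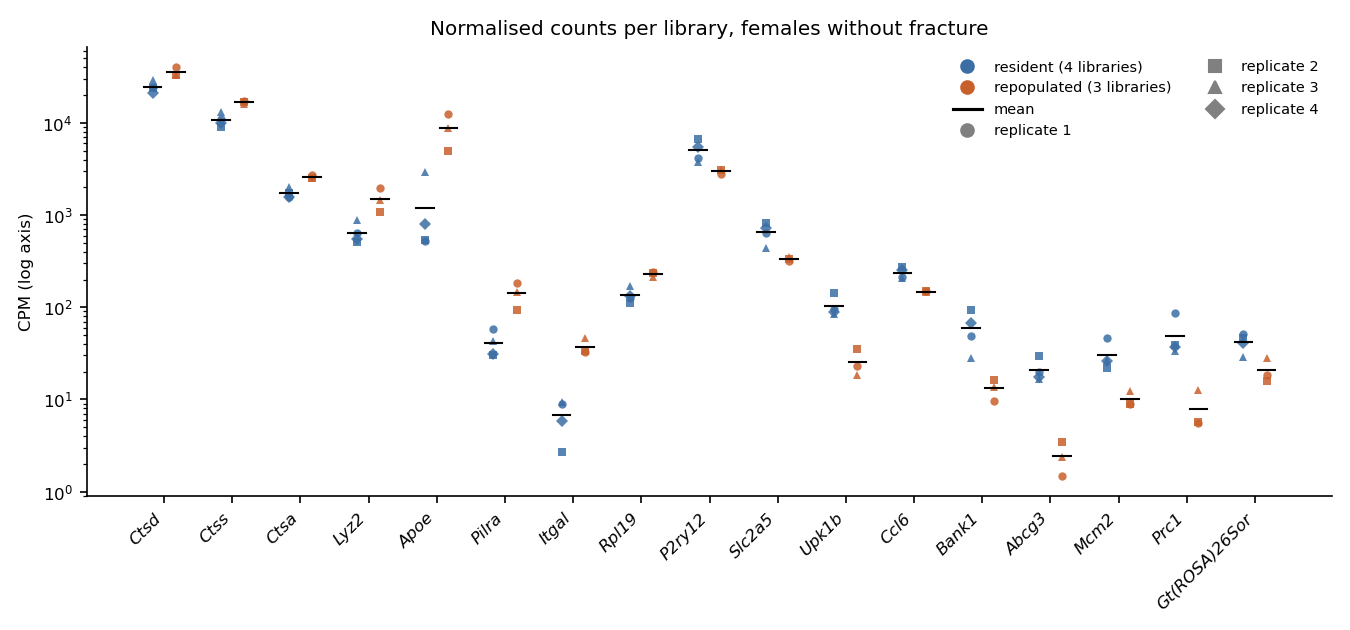
CPM (log axis) of 17 genes in each of the 7 libraries, with marker shapes for replicate numbers and black bars for group means. Ctsd, Ctss, Ctsa, Lyz2, Apoe, Pilra, Itgal and Rpl19 stood higher in all 3 repopulated libraries, and the remaining 9 genes stood lower in all 3.

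Iron handling genes moved in both directions, 4 up and 1 down of 16 measured, with a median of 0.16. Slc40a1, ferroportin, the only known cellular exporter of iron, had 254, 352, 240.4 and 279.7 CPM against 149, 177 and 164 and fell by 0.79 ± 0.13 (adjusted p = 0.0098). The subunits of the iron store ferritin rose, Ftl1 by 0.53 ± 0.12 and Fth1 by 0.54 ± 0.14 (adjusted p = 0.028 and 0.0495). Hmox1, which frees iron from haem, had 41, 32.6, 54.5 and 31.2 CPM against 68.3, 67.9 and 75 and rose by 0.82 ± 0.17 (adjusted p = 0.022). Slc11a1, which moves iron out of phagosomes, rose by 0.53 ± 0.12 (adjusted p = 0.031). The groups did not overlap in any of these 5 genes, as in 336 of all 338 called genes, and none of the 5 is stable.

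In the list of scavenger, lipid uptake and efflux genes, 4 of 25 rose and 1 fell (median 0.32). Apoe, the lipid carrier, had 519, 531, 2945 and 797 CPM in resident libraries, so that replicate 3 held several times as much as the others, and 12461, 5002 and 8765 in repopulated ones. Its change of 2.87 ± 0.59 had an adjusted p of 0.028, with 2 of the 7 omissions keeping the call. The sterol exporter Abcg1, the carrier Npc2 and the cholesterol esterifying enzyme Soat1 rose by 0.59 ± 0.11, 0.61 ± 0.12 and 0.42 ± 0.09. Abcg3 (chr5:104935057-104982718), a rodent gene of the same transporter subfamily as Abcg1, had 20, 29.9, 16.7 and 17.6 CPM against 1.49, 3.5 and 2.35, with every repopulated library far below the resident range (-3.10 ± 0.39, adjusted p = 0.0035, stable). Cyp27a1, which makes 27-hydroxycholesterol and was picked after its value was seen, rose by 0.38 ± 0.09 (adjusted p = 0.037).

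Every one of 79 cytosolic ribosomal protein genes had a positive change, from 0.30 to 0.77, with a median of 0.53. This list was added after the values were seen, so its count is a description. Of the 79, 57 were called and made up 27.3% of all genes called higher, leaving 152 others. Rpl19 of the large subunit had 126, 112, 172 and 131 CPM against 244, 235 and 215 and rose by 0.77 ± 0.12 (adjusted p = 0.0078, stable). Rps28 of the small subunit had 64.3, 64.7, 89.7 and 76.9 CPM against 118, 131 and 115 and rose by 0.72 ± 0.12 (adjusted p = 0.0098, stable). Summed over the 79 genes, resident libraries held 9904, 8530.3, 12091 and 10174 CPM and repopulated libraries 15106, 15451 and 13936 CPM, without overlap and with resident replicate 3 nearest to the repopulated ones.

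With library totals only, the median of the ribosomal protein genes was 0.45 and 40 were called. The median stayed between 0.46 and 0.63 when single libraries were left out, but the calls ran from 12 without repopulated replicate 1 to 74 without resident replicate 3, and 10 of the 57 are stable. The share of all counts taken by the 50 most abundant genes was 22.7% to 24.5% in resident and 26.1% to 28.1% in repopulated libraries, and its part in this result was not tested. Ribosomal protein genes have many near-identical pseudogenes that can share their reads, so single members are uncertain.

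Of 28 homeostatic microglial genes, 8 fell and 5 rose, with a median of -0.19, and 9 had all repopulated libraries below all resident ones (6.44% of all genes did). Upk1b (chr16:38773184-38800328), a tetraspanin of the uroplakin family, had 96.7, 144, 83.9 and 89.6 CPM against 22.9, 35.7 and 18.2 and fell by 2.02 ± 0.26 (adjusted p = 0.0043, stable). Slc2a5, a fructose transporter, had 637, 831, 436 and 728 CPM against 321, 337 and 351 and fell by 0.97 ± 0.16 (adjusted p = 0.0098). P2ry13, a receptor for ADP, had 2338, 3143, 1747 and 2379 CPM against 1384, 1563 and 1459 and fell by 0.71 ± 0.14 (adjusted p = 0.017). In all 3 genes resident replicate 2 was highest and replicate 3 lowest among the resident libraries.

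P2ry12, the neighbouring ADP receptor gene that guides microglial processes, had 4214, 6659.6, 3769 and 5464 CPM against 2781, 3114 and 3098 and fell by 0.75 ± 0.16 (adjusted p = 0.028). The remaining 4 falls were Ecscr (-0.61 ± 0.13), Crybb1 (-0.89 ± 0.22), the selectin ligand Selplg (-0.39 ± 0.08) and the Golgi protein Golm1 (-0.36 ± 0.08). The 5 rises were the matrix protein Sparc (0.33 ± 0.05, adjusted p = 0.0094, stable), the lipid receptor Trem2 (0.28 ± 0.06), its signalling partner Tyrobp (0.37 ± 0.08), the cytoskeletal protein Aif1 (0.31 ± 0.07) and the MHC class II ligand Lag3 (0.80 ± 0.20). Cx3cr1, whose regulatory region drives Cre in this line, did not pass (2841, 3724, 2707 and 3109.7 CPM against 2625, 2771 and 2458; -0.24 ± 0.09, adjusted p = 0.19). Tmem119 and Csf1r did not pass either, at -0.24 ± 0.08 and 0.07 ± 0.05. In females with fracture Cx3cr1 did pass, at -0.34 ± 0.08 (adjusted p = 0.042). It also passed in males without fracture, at -0.52 ± 0.13 (adjusted p = 0.02). Without repopulated replicate 1, 1 member of the list was called higher and 1 lower, and with library totals only 1 was higher and 9 lower.

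Of 20 microglial identity transcription factors measured, 1 was called. Sall1, a zinc finger factor that keeps microglia distinct from other macrophages, had 309, 336, 286 and 340.3 CPM against 236, 262 and 268 and fell by 0.31 ± 0.08 (adjusted p = 0.0486). The groups did not overlap, but the call held in only 1 of the 7 omissions. The median of the list was -0.01, and 19 members, among them the macrophage master factor Spi1, did not pass.

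Of 26 genes listed as typical of macrophages of circulating origin, 21 were measured, with 15 positive and 6 negative values and a median of 1.19. Of these 21, 6 rose and 0 fell, and 11 had no overlap between the groups with repopulated libraries higher (6.87% of all genes did). Pilra (chr5:137821952-137836281), an inhibitory receptor of myeloid cells, had 57.8, 30.3, 43 and 30.9 CPM against 183, 92.7 and 147 and rose by 1.80 ± 0.22 (adjusted p = 0.0035, stable). Lyz2, the lysozyme of macrophages, had 634, 507, 889.8 and 554 CPM against 1959.7, 1081 and 1442 and rose by 1.21 ± 0.19 (adjusted p = 0.0098, stable). Itgal, the integrin subunit that pairs with Itgb2 to form LFA-1 on leukocytes, had 8.99, 2.67, 9.42 and 5.86 CPM against 32.4, 33.6 and 46.1 and rose by 2.47 ± 0.48 (adjusted p = 0.016). It lost its call without resident replicate 4 or repopulated replicate 1.

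Clec12a, an inhibitory C-type lectin, had 0.992, 0, 0.554 and 0.0528 CPM in resident and 17.2, 1.86 and 11.9 in repopulated libraries, so that the groups did not overlap but repopulated replicate 2 was close to the resident range. Its rise was 4.68 ± 1.07 (adjusted p = 0.037). The other 2 called members were Mcub, a subunit of the mitochondrial calcium channel (1.36 ± 0.24), and Ms4a6c, a membrane protein (0.67 ± 0.15). Ms4a7, a membrane protein of blood-derived and border macrophages, did not pass: it had 1.11, 0.625, 4.49 and 0 CPM against 32.9, 2.54 and 25.2 (3.69 ± 1.10, adjusted p = 0.11). Between 2 and 10 of the 21 were called with 1 library left out, the lowest without repopulated replicate 1.

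Markers of other cells that a microglial sort could hold were read list by list. Of the T and NK cell, pericyte and fibroblast, and red blood cell lists, 0 members had a row in the table analysed. Of 9 border macrophage markers, 4 were measured and 0 called, and their sum was 2.99 to 4.08 CPM in resident and 4.68 to 14.7 in repopulated libraries. Mrc1, the mannose receptor that defines these cells, had 0.934, 0, 0.942 and 1.16 CPM against 5.7, 2.03 and 9.56 (2.91 ± 1.08, adjusted p = 0.2). Of 8 monocyte markers, 2 were measured, Plac8 and Vcan, with sums of 2.04 to 26.1 CPM in resident and 3.78 to 13.1 in repopulated libraries. The neutrophil list was measured through Csf3r alone, at 863 to 996 and 1083 to 1217 CPM (adjusted p = 0.0517). The part of such cells in the rises above was not tested.

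Oligodendrocyte markers summed to 2192 to 2699 CPM in resident and 2637 to 2933 in repopulated libraries, with 1 of 7 called. That gene was Trf, the iron carrier transferrin, which made up most of the sum and rose by 0.23 ± 0.06 (2031, 2269, 2168 and 1968 CPM against 2635, 2429 and 2348). Astrocyte markers summed to 488 to 545 and 472 to 612 CPM, with 1 of 9 called. That gene was Slc39a12, a zinc importer, with 2.33, 10.9, 1.61 and 6.65 CPM in resident libraries and 0 in all repopulated ones. Its resident mean was 30.8-fold above a floor of 3 counts per library. Neuron markers summed to 2.8 to 7.72 and 4.81 to 7.33 CPM, with 0 of 3 called. Endothelial markers summed to 25.4 to 41.5 and 24.1 to 41.1 CPM, with 1 of 3 called: Pecam1, an adhesion molecule also made by leukocytes, fell by 2.19 ± 0.53 (18.4, 16.8, 20.2 and 21.7 against 8.12, 3.72 and 0.895 CPM), with the call kept only without repopulated replicate 1. Of 7 oligodendrocyte precursor markers, 2 were measured and 1 called. The called one, Cspg4 (NG2), was at 0 in all resident libraries while the repopulated ones had 10.4, 7.1 and 0.783 CPM. The repopulated mean was 36.4-fold above the same floor, with repopulated replicate 3 nearest to it, and 4 of the 7 omissions kept the call.

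Of 9 B lymphocyte markers, 3 had a row in the table analysed and all 3 fell. Ighm, the constant region of immunoglobulin M, had 499, 567, 434 and 469.8 CPM against 349, 334 and 317 and fell by 0.56 ± 0.08 (adjusted p = 0.0071, stable). Ighd, that of immunoglobulin D, had 16.6, 23.3, 14.3 and 22.1 CPM against 12.6, 8.01 and 6.99 and fell by 1.05 ± 0.24 (adjusted p = 0.033), and its call was lost without 4 of the 7 libraries but kept without repopulated replicate 1. Cd79b, a signalling chain of the B cell receptor, had 44.6, 34.7, 41.5 and 48.2 CPM against 14.6, 26.9 and 19.1 and fell by 1.06 ± 0.25 (adjusted p = 0.037). The sum of the 3 was 489 to 625 CPM in resident and 343 to 376 in repopulated libraries, and Ighm made up most of it.

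Further lymphoid genes that fell, picked after their values were seen, were Bank1, an adaptor of B cell signalling, and the lymphoid GTPases Gimap6 and Gimap9. Bank1 had 48.3, 94, 28.1 and 67 CPM against 9.67, 16.1 and 13.7 and fell by 2.17 ± 0.32 (adjusted p = 0.0071, stable). Gimap6 had 22.8, 46.6, 26.1 and 34.6 CPM against 9.61, 13.6 and 8.89 and fell by 1.60 ± 0.25 (adjusted p = 0.0073, stable). Gimap9 fell by 1.66 ± 0.36 (adjusted p = 0.027). Blnk, an adaptor downstream of the B cell receptor that macrophages also use, went the other way and rose by 0.42 ± 0.10 (adjusted p = 0.037).

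Cell division genes stood lower in repopulated libraries. Of 36 DNA replication genes, 34 had negative values and 4 were called lower, with a median of -0.88. Mcm2, a subunit of the replicative helicase, had 46.6, 22.1, 26.5 and 26.4 CPM against 8.99, 8.85 and 12.5 and fell by 1.59 ± 0.27 (adjusted p = 0.0098). The helicase subunits Mcm4 and Mcm7 fell by 1.11 ± 0.27 and 1.10 ± 0.27. Uhrf1, which keeps DNA methylation through replication, had 56.1, 13.3, 22.5 and 12.3 CPM against 6.07, 2.2 and 4.59 and fell by 2.60 ± 0.52 (adjusted p = 0.018). Of the mitosis list, all 38 gene identifiers measured (for 37 listed genes) had negative values and 2 were called, with a median of -1.35. These were Prc1, which bundles spindle microtubules (85.7, 39.2, 33.5 and 36.8 CPM against 5.58, 5.64 and 12.7; -2.61 ± 0.60, adjusted p = 0.04), and Cdca8, of the chromosomal passenger complex (36.3, 5.96, 11.4 and 12.6 against 2.6, 2.37 and 4.14; -2.44 ± 0.51, adjusted p = 0.023).

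Summed CPM of the mitosis genes was 1691, 453, 707 and 836 in resident and 346, 292 and 426 in repopulated libraries, and of the replication genes 1301, 569.8, 709.5 and 706 and 468, 452 and 487. The sums did not overlap, and resident replicate 1 had the highest sum of both lists. Without resident replicate 1 the medians were -0.53 for replication, with 2 called, and -0.95 for mitosis, with 1 called. Without repopulated replicate 1, 0 of either list were called by edgeR, at medians of -0.85 and -1.36. Mki67, the usual marker of cycling cells, had 85.1, 19.4, 40.5 and 55.7 CPM against 21.8, 20.2 and 26.5 and did not pass (adjusted p = 0.33), nor did Top2a, a mitotic topoisomerase (adjusted p = 0.1).

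**Figure D3:**
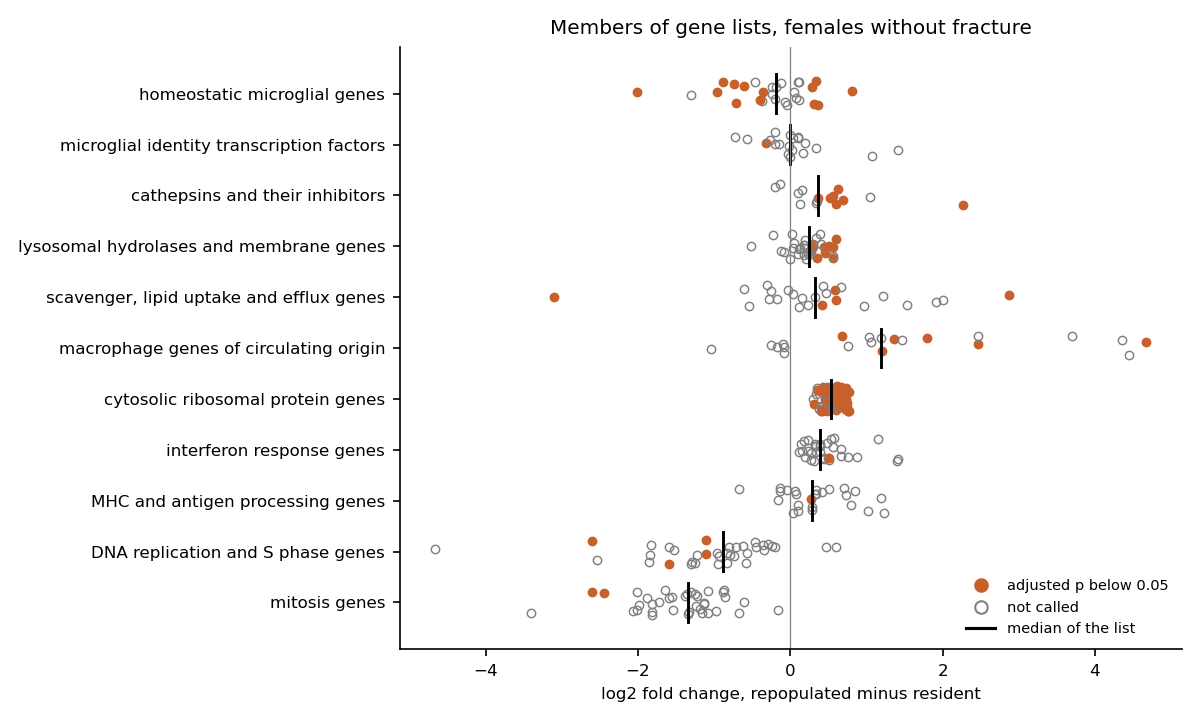
Log2 fold change of each measured member of 11 gene lists (1 point per gene), filled where called, with the list median as a black bar. Ribosomal protein genes cluster between 0.30 and 0.77, mitosis genes lie below 0, and homeostatic genes fall on both sides.

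Immune receptor and inflammatory lists showed few calls. Of 29 CLEC, Siglec, Cd300 and paired receptors 2 rose, Pilra and Clec12a, and of 20 Fc receptor and ITAM signalling genes 2 rose, Tyrobp and Blnk. Of 33 interferon response genes, 33 had positive values (median 0.40) but only Apobec3, a cytidine deaminase that restricts retroviruses, was called. It had 432, 403, 432 and 362 CPM against 573, 598 and 568 and rose by 0.51 ± 0.09 (adjusted p = 0.0098, stable). The summed level of the list was 7126, 3086, 6065 and 3672 CPM in resident and 6434, 7270.1 and 6635 in repopulated libraries, so resident replicates 2 and 4 were low, replicate 1 lay within the repopulated range and replicate 3 just below it. Of 25 MHC and antigen processing genes, Tapbp alone was called (0.27 ± 0.07), and the class I gene H2-K1 had 2580.4, 1057, 3313 and 1529 CPM against 3598, 3403 and 3360.1 (adjusted p = 0.28).

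Among 36 Toll-like receptor and NF-kB genes, 3 rose (median 0.07): Nfkb2, a precursor of the factor p52 (0.75 ± 0.14), the inhibitor Nfkbia (0.60 ± 0.14) and the lipoprotein receptor Tlr2 (0.63 ± 0.15). Il1b and Tnf, which encode inflammatory cytokines, did not pass, at -0.22 ± 0.66 and -0.71 ± 0.37. Of 21 chemokines and receptors, 2 fell. Ccl6 had 214, 271, 207 and 252 CPM against 149.9, 149 and 146 and fell by 0.67 ± 0.10 (adjusted p = 0.0071, stable), and the decoy receptor C5ar2 fell by 0.44 ± 0.10 (adjusted p = 0.039). Of 16 complement genes, 3 rose by 0.29 to 0.36: C1qa, C1qb and the integrin subunit Itgb2. Of 36 growth factor, cytokine and receptor genes, only Ifnar1, a subunit of the interferon receptor, was called (0.41 ± 0.09). Igf1, a growth factor of activated microglia, had 0.175, 0.625, 1.27 and 0.422 CPM against 8.61, 2.2 and 5.54 and did not pass (adjusted p = 0.11).

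Of 25 integrins and adhesion molecules, 4 rose and 3 fell (median 0.09). Beside Itgal and Itgb2, the tetraspanins Cd63 and Cd82 rose by 0.91 ± 0.20 and 0.38 ± 0.08, and Jam3, a junctional adhesion molecule, fell by 2.72 ± 0.68 together with Selplg and Pecam1. Of 16 eicosanoid synthesis genes 1 was called: Ptgs1, cyclooxygenase 1, had 1519, 1660.3, 1440.5 and 1516 CPM against 1229.6, 1335 and 1304 and fell by 0.25 ± 0.06 (adjusted p = 0.0465). None of these genes is stable.

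Several of the largest changes fell outside the lists. Phf19, a Polycomb accessory protein, had 9.45, 4.54, 3.77 and 4.91 CPM in resident libraries and 0 in the 3 repopulated ones. Its resident mean was 32.5-fold above a floor of 3 counts per library. A gene found only in the repopulated female libraries could not have been listed. Serpinf1 (chr11:75409769-75422701), a secreted serpin also called PEDF, had 111, 83.9, 77.4 and 95.7 CPM against 34.1, 41.2 and 32.8 and fell by 1.35 ± 0.18 (adjusted p = 0.0043, stable). Stk26, a Ste20-like kinase, had 13.8, 15.8, 11 and 11.8 CPM against 4.83, 3.16 and 3.75 and fell by 1.74 ± 0.28 (adjusted p = 0.0088, stable). Gpr165, an orphan receptor, fell by 2.74 ± 0.57 and Brip1, a DNA repair helicase, by 4.00 ± 0.89. Adamtsl2, a matrix protein, fell by 2.33 ± 0.41, Emp2, a tetraspan membrane protein, by 2.48 ± 0.54 and the focal adhesion kinase Ptk2 by 3.05 ± 0.77.

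Among the rises, Trps1, a GATA-type repressor, had 2.51, 5.51, 11.7 and 6.02 CPM against 44.1, 24.6 and 30.6 and rose by 2.36 ± 0.38 (adjusted p = 0.0088, stable). Rab7b, a small GTPase of late endosomes, rose by 2.54 ± 0.57, and the scaffold of podosomes Sh3pxd2b by 2.09 ± 0.51. Ifitm2, an antiviral membrane protein, rose by 2.30 ± 0.55 and Ppargc1b, a coactivator of mitochondrial genes, by 1.47 ± 0.36. None of these 4 is stable. The junction protein Jup fell by 0.86 ± 0.14 and the adaptor-like gene Fam102b by 0.70 ± 0.10, both stable. The membrane protein Itm2b rose by 0.40 ± 0.06, stable as well. The actins Actg1 and Actb, often taken as references, fell by 0.43 ± 0.08 and 0.31 ± 0.08 (adjusted p = 0.016 and 0.043). Jup, Itm2b and the actins were picked after their values were seen.

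The transcript of the Rosa26 locus, Gt(ROSA)26Sor (chr6:113067428-113077333), was also picked after its values were seen, since the receptor allele of this line lies there. It had 50.8, 46.7, 28.9 and 40.6 CPM in resident and 18.2, 15.9 and 27.8 in repopulated libraries, with resident replicate 3 the lowest resident one and repopulated replicate 3 just below it. It fell by 1.01 ± 0.24 (adjusted p = 0.035), with 2 of the 7 omissions keeping the call. In the 8 female libraries with fracture it was at 34.2, 44.3, 43.1 and 40.8 CPM in resident and 29.6, 28.3, 25.5 and 17.0 in repopulated ones (-0.69 ± 0.21, adjusted p = 0.11). In males without fracture it was at 11.7, 11.3 and 20.2 CPM against 7.94 and 4.73 (-1.19 ± 0.49, adjusted p = 0.17). The labels give no number of Rosa26-iDTR alleles for any library, and its part in these values was not tested. Whether the counting used strand is not given in the sources used here, so reads of overlapping genes cannot be told apart.

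At the level of single transcripts, 63 of 34865 were called (0.181%), 37 higher and 26 lower, in 59 genes. Of these genes, 51 were also called as genes, and in 0 of these 51 were transcripts called in opposite directions. Genes not called as genes were left out of that last count. Annotated as protein coding were 45 of the 63, and as retained intron or nonsense-mediated decay 14 (22.2%, beside 31.5% of all transcripts in the table). Of those 14, 11 were higher. Ctsa-202, the main coding transcript of Ctsa, rose by 0.57, and Ctsa-204, a retained intron form holding 1.16% of the gene in resident and 1.32% in repopulated libraries, by 0.75.

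A transcript of a gene can be called while the gene is not. Clk1-210, a form of the splicing kinase Clk1 marked for nonsense-mediated decay, had 74.6, 96.3, 72.5 and 63.8 CPM in resident and 132, 121 and 135 in repopulated libraries. Its share of Clk1 was 17.2% and 26.6%, while Clk1 as a gene changed by 0.16 ± 0.10 (adjusted p = 0.52). Cyth4-203, a decay form of an Arf exchange factor, had 19.6, 21, 21 and 20 CPM against 42.1, 32.4 and 39.6, with Cyth4 as a gene at -0.04 ± 0.07. Myl6-212 and Ttc27-204 were at 0 in all 3 repopulated libraries and at no more than 4.89 and 2.56 CPM in resident ones. Transcripts found only in the repopulated female libraries could not have been listed. Estimated counts of overlapping transcripts depend on how reads were shared between them, and the count of 63 ran from 0 without resident replicate 4 or without repopulated replicate 3 to 306 without resident replicate 3.

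The same contrast in females with a fracture used 8 other libraries, 4 resident and 4 repopulated, and called 315 genes (2.35%), 170 higher (1.27%) and 145 lower (1.08%). The comparisons share no library but share the estimate of the spread. Of the 338 genes, 157 were also called with fracture in the same direction (46.4% of 338 and 49.8% of 315), 105 higher and 52 lower, and 0 in the opposite direction. The sign was the same for 333 of the 338 (98.5%), beside 64.1% of all genes. Median changes with fracture were 0.43 for the higher and -0.63 for the lower genes. No gene passed the test of the difference between the effects with and without fracture in edgeR (0 called, 0%; 494 at an unadjusted p below 0.05; 1 called by DESeq2).

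Serpinf1 changed by -2.25 ± 0.17, Pilra by 1.88 ± 0.21, Upk1b by -2.05 ± 0.24, Lyz2 by 1.34 ± 0.18 and Gimap6 by -1.89 ± 0.23, each called there as well. Ribosomal protein genes had a median of 0.47 with fracture, with 42 of 79 called, and cathepsins a median of 0.43, with 7 of 15 called. Of the mitosis list, 13 were called lower with fracture (median -2.05), against 2 without. Mki67 changed by -3.04 ± 0.51 with fracture (adjusted p = 0.012). The difference between the fracture states did not pass for any of these genes.

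**Figure D4:**
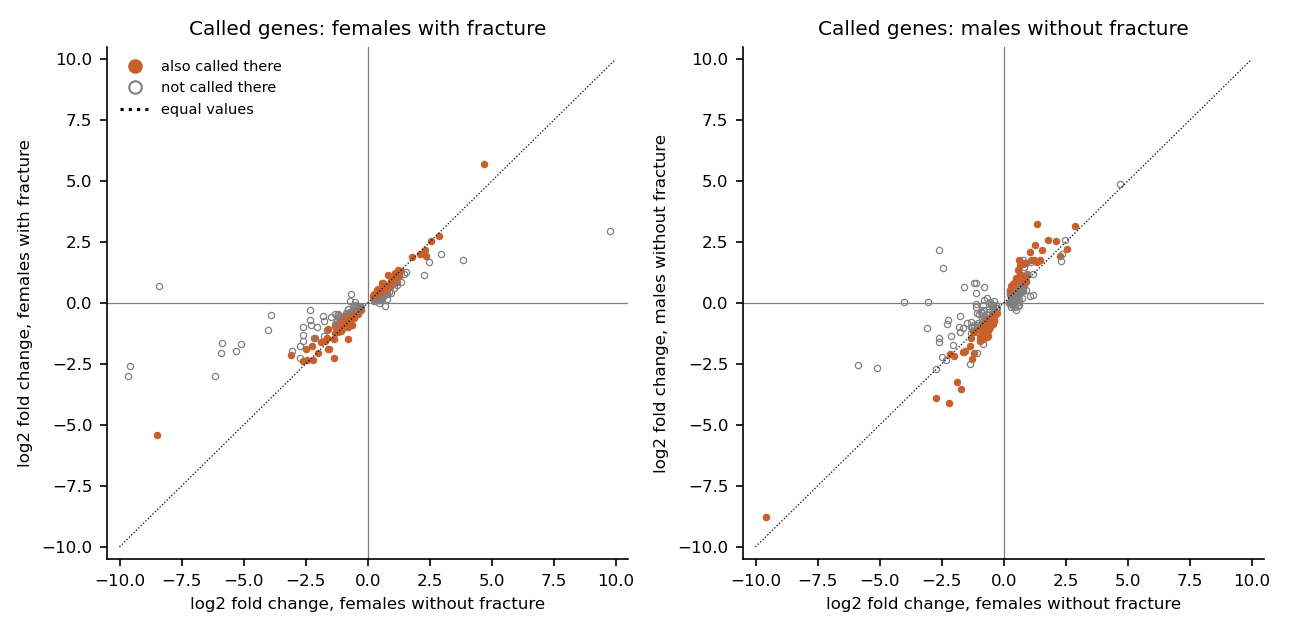
Log2 fold changes of the 338 called genes, without fracture in females on the x axes, against females with fracture (left) and against males without fracture (right, 325 genes in the male table). The dotted line marks equal values. The signs were the same for 333 genes on the left and for 301 on the right, and genes at 0 in 1 group lie at the far ends.

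In males without fracture, 3 resident and 2 repopulated libraries gave 890 called of 11999 genes (7.42%), 564 higher (4.7%) and 326 lower (2.72%). Male libraries were made with another kit, so sex and kit cannot be told apart, and the male descriptions name the repopulated libraries iDTR. Of the 338 genes, 325 were in the male table and 301 had the same sign there (92.6%, beside 61.2% of 11672 shared genes). Called in both in the same direction were 157, and in opposite directions 0. Among the stable genes, Upk1b changed by -2.19 ± 0.37 in males, Serpinf1 by -1.78 ± 0.24, Ccl6 by -1.37 ± 0.16 and Ctsh by 0.63 ± 0.07, all called. Sparc and Flcn were not called in males, at 0.16 ± 0.15 and 0.03 ± 0.12.

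The difference between the sexes was tested in 1 fit over both tables and passed for 48 of 11617 genes (0.413%), 9 with the higher and 39 with the lower effect in females. Of the 325 genes, 4 were among the 48. Of the interferon list, 10 of 33 passed, all with the lower effect in females. Ifit3, a member of this list, changed by 0.50 ± 0.31 in females and 3.57 ± 0.54 in males (adjusted p of the difference = 0.026). Isg15, a ubiquitin-like modifier, changed by 0.34 ± 0.27 and 3.15 ± 0.52 (adjusted p of the difference = 0.036). The interferon list's median was 0.40 in females and 3.45 in males, where 32 were called higher.

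Tlr2 changed by 0.63 ± 0.15 in females and 1.75 ± 0.16 in males (adjusted p of the difference = 0.033). MHC genes had medians of 0.29 and 1.28, with 0 members passing the test of the difference. Replication and mitosis genes, negative in females, had male medians of 0.20 and 0.94, and 0 members of either list passed that test in edgeR, with 14 and 18 at an unadjusted p below 0.05. Cathepsins and lysosomal genes had male medians of 0.52 and 0.44 and ribosomal protein genes 0.58. The count of 48 ran from 8 without female resident replicate 1 to 113 without female resident replicate 2.

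**Figure D5:**
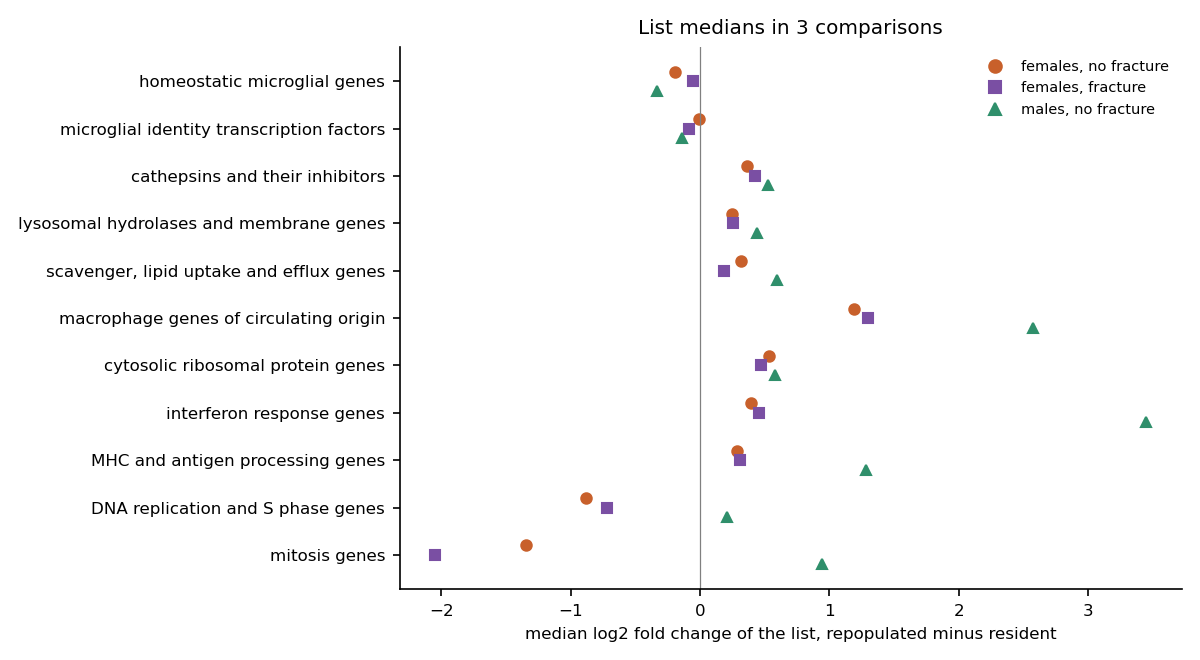
Median log2 fold change (repopulated minus resident) of 11 gene lists in females without fracture, females with fracture and males without fracture. The 3 medians lie close together for cathepsins, lysosomal and ribosomal protein genes, and apart for interferon response genes (0.40, 0.46 and 3.45) and mitosis genes (-1.35, -2.05 and 0.94).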

How the data were processed

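RNA of sorted microglia was sequenced. The authors deposited estimated counts per transcript; per the submitters' processing notes the build was GRCm38 and the tools named include RSEM 1.3.1 and STAR 2.7.6a, beside cutadapt 3.4 and Trim Galore 0.6.7. Transcript rows were summed by gene and rounded to whole numbers. edgeR 4.0.16 in R 4.3.3 (TMM, filterByExpr, which removed 0 genes, robust quasi-likelihood F test) was fitted to the 4 female groups, 15 libraries, without covariates, and to the male groups separately. The sex difference came from a joint fit of 32 libraries, and transcripts from the same model. p-values were adjusted by Benjamini-Hochberg over all genes tested. Each SE was derived from the F test, as the size of the log2 change over the square root of F, and is approximate. Listed transcripts had at least 10 counts in at least 8 female libraries, so genes detected in fewer libraries were not analysed here. Fewer than 8 female libraries are repopulated, so transcripts found only in repopulated libraries could not be listed. Transcripts found only in resident libraries could. DESeq2 1.42.0, other scalings, filters and left-out libraries were alternatives, and the scripts were tested on simulated data.

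The groups compared, the gene lists and the rules were chosen with earlier results of these data known. Named genes were the 12 largest rises and 12 largest falls without overlap between groups and a mean of 5 CPM or more in the higher group, up to 4 called members per list by p, the 12 called genes most stable to leaving out a library, a panel of marker genes, and genes of 8 called transcripts. Others named were chosen after their values were seen. A few genes that these rules name are not reported here. Replicate numbers do not state a shared animal and were not used as a block. Gene positions are from GENCODE M21 on GRCm38.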

Additional observations from a re-analysis of the deposited data

Results flagged for a closer look

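In 6 of 137 named genes, 1 of the 4 resident libraries stood apart from the others by Dixon's criterion, which chance meets in about 1 in 20 groups. Resident replicate 1 was high for Prc1, at 85.7 CPM against 33.5 to 39.2, and for Adamtsl2, at 14.0 against 8.14 to 8.66. Resident replicate 3 was low for Crybb1, at 51.1 CPM against 85.9 to 90.2, and high for Man2b1, at 2248 against 1741 to 1814. Resident replicate 4 was low for Tcirg1, at 327 CPM against 362 to 369, and Mrc1 was at 0 in resident replicate 2 against 0.934 to 1.16.

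For 4 named genes the repopulation effect differed between females and males in the joint edgeR fit. The female minus male difference (log2) was 0.45 for Cyth4, -1.10 for Tlr2, -2.79 for Isg15 and -3.05 for Ifit3, with adjusted p of 0.0454, 0.0333, 0.0357 and 0.0255. Sex and library kit cannot be told apart in these values.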

How the results depend on the processing

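Of the repopulated against resident comparison, the 338 called genes became 676 with DESeq2, 143 with the replicate block and 0 with only the 7 libraries (1591 at an unadjusted p below 0.05 in edgeR), and 12 without both resident replicates 1 and 2. Leaving out 1 library gave 51 to 612. The labels do not say what a shared replicate number means. Same-numbered resident and repopulated libraries correlated at 0.21, 0.04 and 0.13. These values are not correlations of overall expression, in which each resident library averaged 0.915 to 0.948 with the repopulated ones. Repopulated replicates 1 and 2 matched the resident library of their own number best, and repopulated replicate 3 matched resident replicate 4. Whether the numbers mark a shared processing order was not tested. The 48 genes with a sex difference became 161 with DESeq2 and 17 with only the compared groups, and 8 to 113 with 1 library left out. The 63 transcripts became 740 with DESeq2, 153 with the filter of 5 CPM, 1 with the replicate block and 0 with only the groups compared (2459 unadjusted), and 0 to 306 with 1 library left out. The fracture difference of 0 genes became 1 with DESeq2 and 0 to 1 with 1 library left out. The cause of these moves was not tested.

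The named called genes all kept their sign under every setting tried, and all passed with DESeq2, 81 with library totals only, 46 with the block and 0 with the 7 libraries alone. Sign changes were limited to named genes that were not called. With library totals only, the log2 change was -0.0133 for Csf1r and -0.00677 for Cd81. Leaving out 1 library gave -0.540 to 0.0430 for Il1b and -0.0707 to 0.0429 for Cyth4. The reversals among these were 0.0430 for Il1b without resident replicate 1, 6.187e-06 for Il1b without repopulated replicate 1 and 0.0429 for Cyth4 without resident replicate 2. Without both resident replicates 1 and 2, Cyth4 was at 0.0281.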
